A study of Mus musculus with 9 samples.

Results

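The genes described here are Krt7, Krt8, Krt18, Krt19 and Vim, 5 intermediate filament genes chosen by exact gene symbol in the tables of counts. They were chosen with earlier results of these data known. All 5 were listed in each of the 3 tables, among 10260 gene symbols in all. They were measured in AML12 cells, a mouse hepatocyte line that was derived from a mouse carrying a TGF-alpha transgene and that stands here as a single line for hepatocytes. Control cells (n = 3) received no treatment and were grown in the same serum-containing medium as the others. The PA-OA group (n = 3) received 2 fatty acids for 24 h, PA (taken to be palmitic acid, 0.2 mM) and OA (taken to be oleic acid, 0.4 mM). The Ang(1-7) group (n = 3) received 100 nM of the peptide Ang(1-7) 30 min before the same fatty acids. No group received the peptide without fatty acids or the carrier of the fatty acids alone, so a change against control cannot be told apart from an effect of the carrier.

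Keratins form filaments only as pairs of a type II chain and a type I chain. Krt8 (type II) with Krt18 (type I) is the pair of hepatocytes, which in the adult liver carry few other keratins. Krt7 (type II) and Krt19 (type I) are made in bile duct cells and in immature or reactive liver cells, and Vim encodes vimentin, the type III filament protein of mesenchymal cells that also appears in many epithelial cells in culture. The hepatic keratins protect cells against mechanical and toxic stress, and they collect with p62 and ubiquitin in Mallory-Denk bodies in steatohepatitis.

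In PA-OA against control, edgeR called 3 of the 5 genes, all lower, where it called 5.05% of all genes tested (2.24% lower). Because of how the 5 were chosen, such counts of members are a description and no test of the set. Against control, Krt19 fell by 32.3%, Krt7 fell by 17.1% and Vim fell by 14.5%, while the main hepatocyte pair, Krt8 and Krt18, did not pass the test. The call of Krt19 held when any 1 library was left out, those of Krt7 and Vim were each lost in 4 of 6 such fits, and none was made when the spread was estimated over all 9 libraries. With Ang(1-7) before the fatty acids, no member differed from PA-OA by the test, and against control no member passed it while the library Ang(1-7) 2 was included. Without that library all 5 were called lower than in control, where 10.2% of all genes were called, and 4 of the 5 in a fit of all 3 groups without it.

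Library Ang(1-7) 2 stood apart from the other 8. Its correlation of log2 CPM (counts after scaling each library to the same total) across genes was 0.917 to 0.937 with the others, against at least 0.969 for every other pair, and 1029 genes had no counts in it, against 225 to 682 in the other libraries of the same table. The comparisons of the 5 genes that rest on it are therefore given with and without it. Listed counts per library ranged from 24588312 to 28704499. The hepatocyte label was checked with 18 marker genes other than the keratins, of which 7 were listed in the table of both fatty acid groups. Alb had only 80 to 550 counts per library and Hnf4a 104 to 251, whereas Trf had 11934 to 24120.

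RefSeq's table of promoters (GRCm38.p6) held Krt8, Krt18, Krt7 and Vim, and the 250 bases before the start of Krt7 and of Vim are shown because these are the genes that fell with the fatty acids and have an entry. Krt7 lies at chr15:101412153-101412402 on the plus strand and Vim at chr2:13574061-13574310 on the plus strand. Capitals mark matches to the searched letters on either strand: GC boxes (GGGCGG) in Krt7, and CCAAT boxes (CCAAT) and a TATA box (TATAAA) in Vim.
Krt7: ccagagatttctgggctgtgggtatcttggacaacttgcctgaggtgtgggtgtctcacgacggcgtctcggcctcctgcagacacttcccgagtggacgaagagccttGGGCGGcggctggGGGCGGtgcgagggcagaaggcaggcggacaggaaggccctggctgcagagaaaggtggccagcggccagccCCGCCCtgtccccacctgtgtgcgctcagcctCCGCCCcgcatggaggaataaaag
Vim: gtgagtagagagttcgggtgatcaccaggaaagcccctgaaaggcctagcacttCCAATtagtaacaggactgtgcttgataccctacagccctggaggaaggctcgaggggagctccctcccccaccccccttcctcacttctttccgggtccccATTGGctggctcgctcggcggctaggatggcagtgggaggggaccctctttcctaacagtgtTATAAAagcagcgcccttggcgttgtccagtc

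The Krt7 stretch held 4 GC boxes, starting at -141 and -128 on the plus strand and at -56 and -24 on the minus strand, counted from the start site. The Vim stretch held a TATA box at -32 and CCAAT boxes at -196 (plus strand) and -94 (minus strand). Of 32851 promoters of the same length, 32.7% held a GC box, 33.8% a CCAAT box and 12.4% a TATA box. The letters of an AP-1 site (TGANTCA, in 6.75% of promoters), a TEAD site (GGAATG, 12.6%) and of the PPAR half-site repeat DR1 (0.0335%) were also searched, and none was found in these 4 stretches. Krt8 (chr15:102004343-102004592, minus strand) and Krt18 (chr15:102027966-102028215, plus strand), neighbours on the chromosome, held no match to any of the 6 searched motifs. GC content was 66.0% for Krt7, 58.4% for Vim, 58.0% for Krt8 and 60.4% for Krt18. Such matches describe the letters in this window and say nothing of binding.

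Of all listed counts, the 5 genes together held 3.16%, 3.26% and 3.36% in the controls (libraries 1, 2 and 3, the order used throughout). The share was 3.19%, 2.98% and 3.00% with PA-OA and 2.97%, 3.21% and 2.85% with Ang(1-7). Krt8 and Krt18 alone made up 2.03% to 2.33% of a library. The lowest member count in any library was 9729 (Krt19 in Ang(1-7) 2), with an exact Poisson 95% interval of 9537 to 9924, so counting error was small beside the spread between libraries. That interval covers counting error only, because reads lacking molecular identifiers need not come from separate molecules.

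Levels of different genes were compared per kilobase of transcript (GENCODE M21), as CPM per kb. In controls Krt18 stood at 6999 ± 146 (SD, n = 3), Krt8 at 6638 ± 276, Vim at 3584 ± 237, Krt19 at 588 ± 51.3 and Krt7 at 275 ± 2.93. Krt8 and Krt18, next to each other in this order, did not differ beyond their spread, with ranges of 6423 to 6949 and 6855 to 7146. Per kb of coding sequence the order of neighbours turned for both pairs, with Krt8 at 8842 ± 368, Krt18 at 7925 ± 165, Vim at 5623 ± 372, Krt7 at 822 ± 8.74 and Krt19 at 766 ± 66.9. With either length the hepatocyte pair was highest, Vim followed and the biliary pair was lowest. The annotation holds a processed pseudogene of Krt8, and how reads shared with it were counted is not given in the sources used here.

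**Figure D1:**
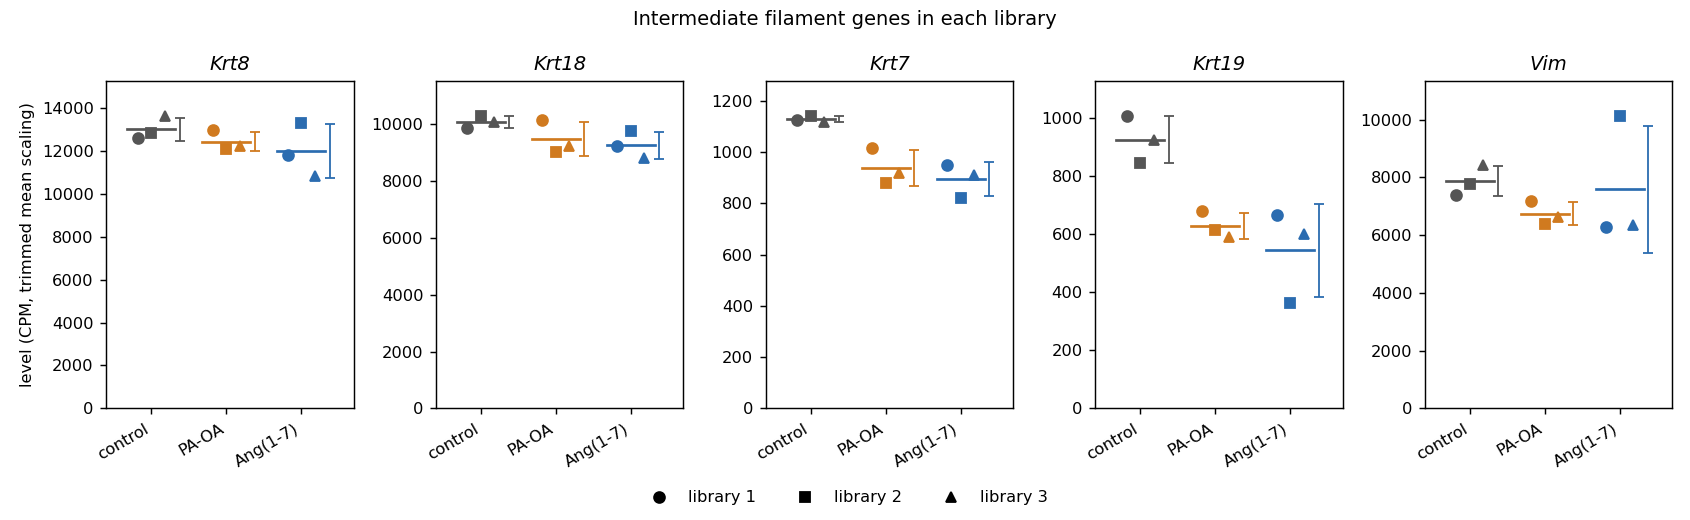
Level of each gene (CPM with trimmed mean scaling, linear axes from 0) in the 9 libraries; symbols give the library number, horizontal lines the group mean and bars the SD (n = 3). Krt19 and Krt7 lie lower in every PA-OA and Ang(1-7) library than in every control, and Ang(1-7) 2 (blue square) is the lowest for Krt19 and the highest for Vim.

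Krt8 encodes the type II partner of the hepatocyte pair. It had 340104, 344253 and 355528 counts in controls, 334518, 309907 and 314998 with PA-OA and 297542, 354445 and 291339 with Ang(1-7). On the CPM scale the groups were 12997 ± 541, 12421 ± 461 and 11966 ± 1255 (SD, n = 3 each). PA-OA 1 lay among the controls and so did Ang(1-7) 2, and the groups overlapped. The log2 fold change of PA-OA against control was -0.07 ± 0.04 (SE; 95% interval -0.16 to 0.02), with an adjusted p of 0.430 in the quasi-likelihood test of edgeR (Benjamini-Hochberg over all genes).

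Krt18 encodes its type I partner. It had 266408, 275984 and 262635 counts in controls, 262171, 230868 and 237528 with PA-OA and 232488, 259328 and 236950 with Ang(1-7). Mean CPM was 10057 ± 209, 9458 ± 606 and 9245 ± 471 (SD, n = 3 each). PA-OA 1 again lay among the controls, and the 3 Ang(1-7) libraries were below all of them. For PA-OA against control the log2 fold change was -0.09 ± 0.05 (95% interval -0.19 to 0.01; edgeR adjusted p = 0.299). Without PA-OA 1 the value was -0.15 and passed the test (edgeR adjusted p = 0.0320).

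Krt7, the type II chain of bile duct cells, had 30454, 30645 and 29172 counts in controls, 26199, 22500 and 23700 with PA-OA and 23959, 21887 and 24556 with Ang(1-7). The controls were close together at 1128 ± 12.0 CPM, against 937 ± 69.7 and 894 ± 65.9 (SD, n = 3 each). All 6 fatty acid libraries were below all 3 controls. Against control, Krt7 fell by 0.27 ± 0.06 on the log2 scale in PA-OA (95% interval -0.40 to -0.14; edgeR adjusted p = 0.0139). This call was lost without control 1 (edgeR adjusted p = 0.0744), control 2 (0.0513), PA-OA 2 (0.0822) or PA-OA 3 (0.0680), with fitted values of -0.34 to -0.23 over the 6 fits that left out 1 library.

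Krt19, a type I keratin that lacks the usual tail domain, changed most. Its main transcript had 27253, 22733 and 24191 counts in controls, 17544, 15792 and 15198 with PA-OA and 16863, 9729 and 16233 with Ang(1-7). Mean CPM was 926 ± 80.9, 628 ± 45.8 and 545 ± 159 (SD, n = 3 each), and every fatty acid library was below every control. In PA-OA against control it fell by 0.56 ± 0.07 on the log2 scale (95% interval -0.71 to -0.41; edgeR adjusted p = 4.37e-05), and the call held when any 1 of the 6 libraries was left out (edgeR adjusted p from 2.30e-05 to 0.00214). A second Krt19 transcript was listed only in the table of both fatty acid groups, with 28, 28 and 25 counts in PA-OA and 47, 0 and 34 in Ang(1-7).

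Vim had 199769, 209020 and 219940 counts in controls, 185336, 163835 and 171043 with PA-OA and 158277, 269756 and 171446 with Ang(1-7). Mean CPM was 7861 ± 520, 6734 ± 400 and 7585 ± 2197 (SD, n = 3 each). The PA-OA libraries lay below all controls, and Ang(1-7) 2 was the highest of the 9. In PA-OA against control Vim fell by 0.23 ± 0.05 on the log2 scale (95% interval -0.34 to -0.12; edgeR adjusted p = 0.0166). The call was lost without control 2 (edgeR adjusted p = 0.0510), control 3 (0.117), PA-OA 2 (0.0773) or PA-OA 3 (0.0747), with fitted values of -0.28 to -0.17.

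In PA-OA against control, then, 3 of 5 members were called and all 3 were lower, where edgeR called 5.05% of the 6213 genes tested (314 genes), 2.24% as lower. The members were chosen with earlier results of these data known, so this count is a description only. The same 3 members had groups that did not overlap, as did 23.8% of all genes (11.6% lower). The called count depends on the design of the fit: with the spread estimated over all 9 libraries no member was called (edgeR adjusted p = 0.328 for Krt19, 0.349 for Krt7 and 0.718 for Vim) and 33 genes were called in all. With 8 libraries, leaving out Ang(1-7) 2, the same 3-group fit called 3 members and 397 genes (6.58% of 6033, 3.05% lower). In bulk RNA, fewer cells that express a gene and less of its RNA per cell cannot be told apart.

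In the authors' deposited table for this pair, the log2 fold changes were -0.59 for Krt19, -0.30 for Krt7, -0.25 for Vim, -0.12 for Krt18 and -0.10 for Krt8. The unadjusted p-values in the authors' deposited table were 3.52e-15, 6.36e-06, 0.000106, 0.0436 and 0.0836, from a test that its headers do not name.

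**Figure D2:**
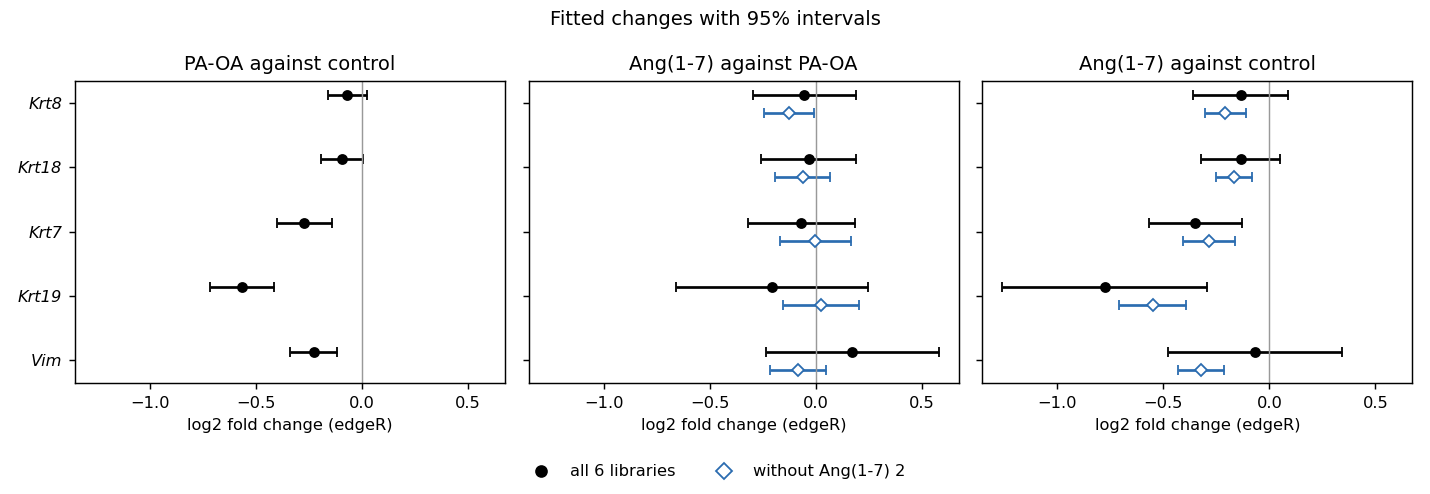
Fitted log2 fold changes (x axis) with 95% intervals for the 5 genes in the 3 comparisons, with all 6 libraries (filled circles) and without Ang(1-7) 2 (open diamonds). The interval of Krt19 in Ang(1-7) against PA-OA runs from -0.66 to 0.25 with that library, and all 5 open diamonds in Ang(1-7) against control lie below 0.

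The comparison of Ang(1-7) with PA-OA asks whether the peptide changed the response to the fatty acids. No member was called, and edgeR called 0 of 9261 genes (0%), with 236 genes (2.55%) at an unadjusted p under 0.05 and 5 genes called by DESeq2. The fitted values were -0.20 ± 0.20 for Krt19 (95% interval -0.66 to 0.25), 0.17 ± 0.18 for Vim (-0.24 to 0.58), -0.07 ± 0.11 for Krt7 (-0.32 to 0.18), -0.05 ± 0.11 for Krt8 (-0.29 to 0.19) and -0.03 ± 0.10 for Krt18 (-0.26 to 0.19). Adjusted p-values by edgeR were 0.965 to 0.980. The groups overlapped for all 5 genes, where 11% of all genes did not overlap. These intervals hold the fitted changes of PA-OA against control for Krt19, Krt7 and Vim, that is, a further fall of that size. A rise of that size, which would return a gene to control, lies inside the interval of Vim and above those of Krt19 and Krt7.

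The members did not behave alike in Ang(1-7) 2. Its CPM divided by the mean of Ang(1-7) 1 and 3 was 1.60 for Vim, 1.18 for Krt8, 1.08 for Krt18, 0.883 for Krt7 and 0.575 for Krt19. Without it, the means of the 2 remaining libraries were 635 ± 46.8 CPM for Krt19, 930 ± 27.4 for Krt7, 6316 ± 60.9 for Vim, 9002 ± 301 for Krt18 and 11300 ± 698 for Krt8 (SD, n = 2). Against PA-OA the fitted values then became 0.03 for Krt19 and -0.08 for Vim, each of the other sign than before, with 0 of 9662 genes called by edgeR. The 95% intervals were then -0.15 to 0.21 for Krt19, -0.17 to 0.17 for Krt7 and -0.21 to 0.05 for Vim. They were -0.19 to 0.07 for Krt18 and -0.24 to -0.01 for Krt8. Those of Krt19, Krt7 and Vim then held neither a fall nor a rise of the size fitted in PA-OA against control. A p above the threshold does not show that the 2 groups were alike. Krt8 was at -0.13, with an unadjusted edgeR p of 0.0380 and an adjusted p of 1.00.

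Ang(1-7) against control uses the same controls as PA-OA against control, so the 2 sets of values are not independent. Krt19 was at -0.78 ± 0.21 (edgeR adjusted p = 0.173; -0.56 in PA-OA), Krt7 at -0.35 ± 0.10 (0.173; -0.27), Krt18 at -0.14 ± 0.08 (0.454; -0.09), Krt8 at -0.13 ± 0.10 (0.527; -0.07) and Vim at -0.07 ± 0.18 (0.879; -0.23). No member was called, where edgeR called 0.245% of 6134 genes (15, all higher). DESeq2 called 1 member, Krt19 (-0.79, adjusted p = 0.0124). Groups did not overlap for Krt19, Krt7 and Krt18, all lower, as for 26.5% of all genes (13.3% lower).

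Without Ang(1-7) 2, all 5 members were called lower against control, where edgeR called 10.2% of the 6134 genes (4.96% lower). Krt19 fell by 0.55 ± 0.08 on the log2 scale (edgeR adjusted p = 0.000170), Vim by 0.32 ± 0.05 (0.000518), Krt7 by 0.28 ± 0.06 (0.00385), Krt8 by 0.21 ± 0.05 (0.00661) and Krt18 by 0.17 ± 0.04 (0.0142). In a fit of all 3 groups without that library, an alternative chosen after the data were seen, 4 members were called and Krt18 was not (edgeR adjusted p = 0.0512), with 9.46% of 6033 genes called (4.72% lower). The hepatocyte pair was thus lower against control in this comparison without Ang(1-7) 2 and not called in PA-OA against control, but the difference between the fatty acid groups was not called for either gene.

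Ratios of counts within a library do not depend on its scaling. Per 100 counts of Krt18, Krt8 had 128, 125 and 135 in controls, 128, 134 and 133 in PA-OA and 128, 137 and 123 in Ang(1-7). The balance of the hepatocyte pair thus overlapped between all groups, and its log2 difference was 0.03 ± 0.04 (SE) in PA-OA against control (exact permutation test, two-sided p = 0.7) and -0.00 ± 0.06 in Ang(1-7) against control (exact p = 1). With 3 against 3 libraries the smallest exact p is 0.1.

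In the biliary pair the ratio did not overlap between control and either fatty acid group, but it passed no test. Per 100 counts of Krt19, Krt7 had 112, 135 and 121 in controls, 149, 142 and 156 in PA-OA and 142, 225 and 151 in Ang(1-7). The log2 differences were 0.29 ± 0.09 for PA-OA and 0.47 ± 0.22 for Ang(1-7) against control (both exact p = 0.1). Per 100 counts of Krt18, Krt19 had 10.2, 8.24 and 9.21 in controls, 6.69, 6.84 and 6.40 in PA-OA and 7.25, 3.75 and 6.85 in Ang(1-7), with differences of -0.47 ± 0.09 and -0.69 ± 0.32 (both exact p = 0.1). Without Ang(1-7) 2, the differences of Ang(1-7) against control were smaller, 0.26 for Krt7 per Krt19 and -0.38 for Krt19 per Krt18 (both exact p = 0.2).

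Krt7 per Krt8 and Vim per Krt8 differed by -0.20 ± 0.05 and -0.16 ± 0.03 between PA-OA and control, and Vim per Krt18 by -0.13 ± 0.05, with no overlap (exact p = 0.1 each). Over the 6 ratios of this comparison, the Benjamini-Hochberg value was 0.12 for the 5 ratios that did not overlap, so none passed 0.05, nor could it have. In Ang(1-7) against control it was 0.3 for the 2 ratios that did not overlap. Between Ang(1-7) and PA-OA all 6 ratios overlapped (exact p from 0.3 to 1), and without Ang(1-7) 2 their differences ranged from -0.07 to 0.13 (exact p from 0.2 to 0.8).

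**Figure D3:**
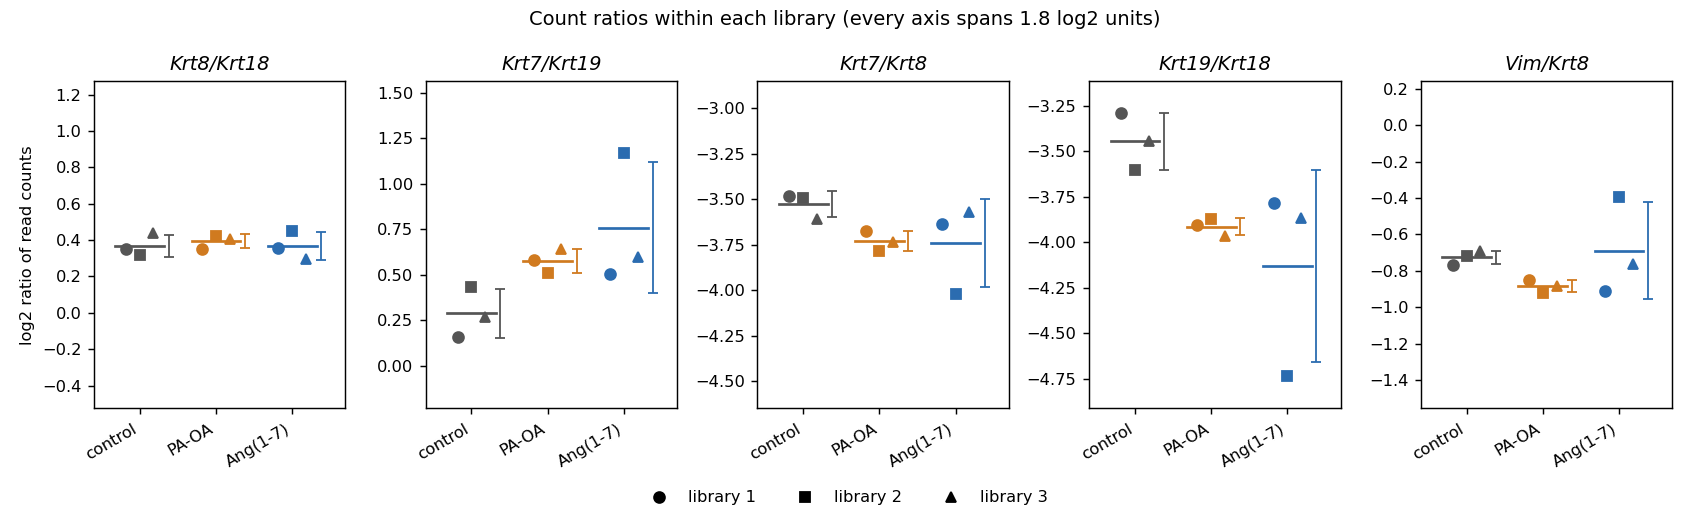
Log2 ratio of read counts of 2 genes within each library (y axis, 1.8 log2 units in each panel), with group means (lines) and SD (bars, n = 3). Krt8/Krt18 overlaps between groups (exact p = 0.7 for PA-OA against control), whereas Krt7/Krt19 is higher, and Krt19/Krt18 lower, in every fatty acid library than in every control.

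The level of each member over the 9 libraries was set beside that of 6033 genes by Pearson's r of log2 CPM, as a description, since the libraries share groups and scaling. Closest to Krt19 were Sdc4 (r = 0.989), a syndecan, Rpl27a (0.987), a ribosomal protein gene, and Csrp2 (0.983). Closest to Krt7 were Rbm19 (0.968) and Phb (0.964), and closest to Vim were Rpl24 (0.985), Tbrg1 (0.982) and Rpsa (0.981). For Krt8 they were Chmp4b (0.964), Snx5 (0.946) and Hist1h2bn (0.945), and for Krt18 Cdc20 (0.975), Hist1h2bg (0.963) and Hist1h1e (0.932).

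Within the 5, r was 0.926 for Krt7 and Krt19 and 0.843 for Krt8 and Krt18. The value for Vim depended on Ang(1-7) 2: with Krt19 it was -0.25 over 9 libraries and 0.825 over 8 without that library, and with Krt7 0.05 and 0.898. Over those 8 libraries the closest genes to Vim were Ranbp1 (0.976), Rpl24 (0.968) and Nsun2 (0.966), to Krt19 Rtfdc1 (0.986), Dtymk (0.977) and Adh5 (0.976), and to Krt7 Rps23 (0.990), Fkbp4 (0.978) and Ezr (0.973). For Krt8 they were Ifrd2 (0.982), Exosc6 (0.982) and Chmp4b (0.974), and for Krt18 Pgam1 (0.993), Rps6 (0.991) and Cdc20 (0.980).

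Of the other intermediate filament genes tested, 0 of 6 were called in PA-OA against control (median log2 fold change 0.15, against 0.01 over all genes), 0 of 10 in Ang(1-7) against PA-OA (0.01 against -0.01) and 0 of 7 in Ang(1-7) against control (0.15 against 0.02). Over all genes tested, edgeR called 5.05%, 0% and 0.245% in these comparisons, so no called gene among so few does not set the family apart. Whether the other family genes differ from the 5 members was not tested. Krt20, a type I keratin of gut epithelium, had the most reads of them, with 6676, 5459 and 5826 counts in controls, 6429, 6321 and 6345 in PA-OA and 5900, 7102 and 6875 in Ang(1-7). Its log2 fold change was 0.14 ± 0.08 in PA-OA against control (edgeR adjusted p = 0.395), beside a fall of Krt19 in the same libraries.

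Krt80 was at 0.16 ± 0.13 (edgeR adjusted p = 0.530) and Krt78 at 0.63 ± 0.31 (0.275) in PA-OA against control. Des, the desmin gene of muscle and stellate cells, had 83, 155 and 78 counts in controls, 232, 135 and 199 in PA-OA and 176, 339 and 238 in Ang(1-7), and its log2 fold changes against control were 0.89 ± 0.39 (edgeR adjusted p = 0.206) and 1.25 ± 0.40 (0.220). The B-type lamin genes of the nuclear envelope, Lmnb1 and Lmnb2, had -0.07 ± 0.09 (edgeR adjusted p = 0.762) and -0.26 ± 0.13 (0.287) in PA-OA against control. Lmnb2 was lower in all 3 PA-OA libraries than in all controls, with a fitted value near that of Krt7, but it was not called. In Ang(1-7) 2 both were low, with 3118 counts of Lmnb1 against 4448 to 5843 in the other 8 libraries and 582 of Lmnb2 against at least 1060.

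The neuronal and glial filament genes were found in 2 Ang(1-7) libraries. Nefl, the light neurofilament gene, had 0, 923 and 477 counts in Ang(1-7) 1 to 3, Nefm 0, 301 and 154, Nefh 0, 546 and 274, and Gfap, the astrocyte filament gene, 12, 888 and 378. In controls and PA-OA these 4 genes had 0 counts in every library, except 4 counts of Nefl in control 2. Ina had 0, 33 and 29 counts and Nes 31, 100 and 38, against 0 to 4 and 15 to 42 in PA-OA. Another 7 genes of the family, listed only in the table of both fatty acid groups (Krt6a, Krt10, Krt12, Krt15, Krt86, Lmna and Bfsp2), had at most 42 counts in any library. Lmna, which most cells express, was listed by 1 predicted transcript only.

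**Figure D4:**
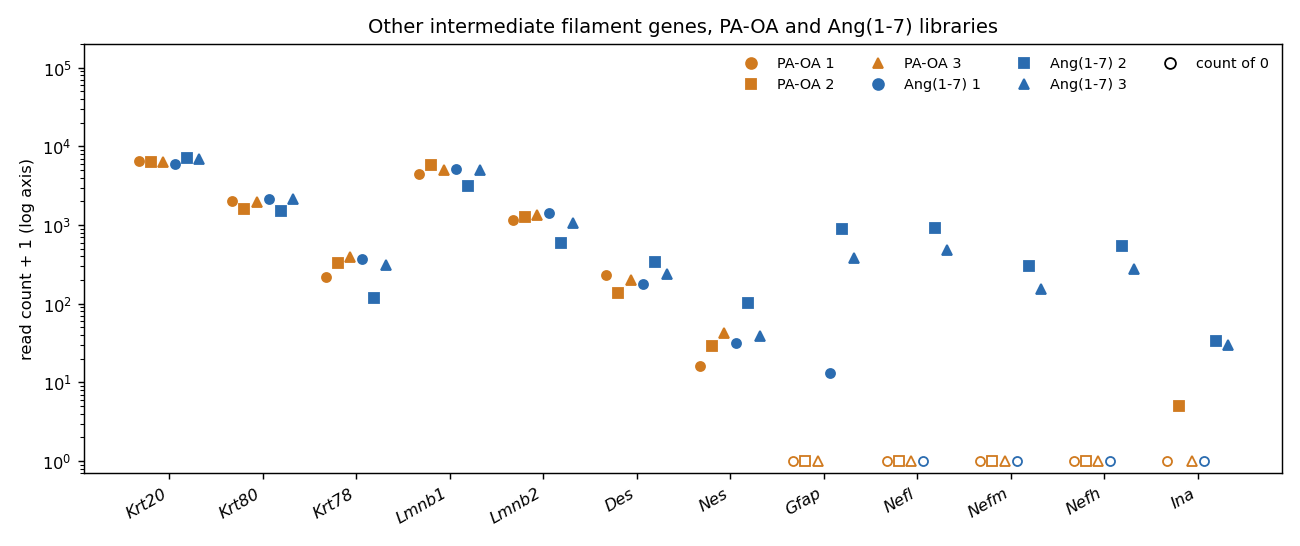
Read counts plus 1 (log axis) of 12 other intermediate filament genes in the 3 PA-OA and 3 Ang(1-7) libraries, with open symbols for a count of 0. Nefl, Nefm, Nefh and Gfap reach 154 to 923 counts in Ang(1-7) 2 and 3, whereas Krt20 lies between 5900 and 7102 in all 6.

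Of 35 markers of nervous tissue searched, 18 were listed in the table of both fatty acid groups. All 18 had counts in Ang(1-7) 2 and in Ang(1-7) 3, against 5 to 8 in the other 4 libraries of that table. Several of them, such as Nefm, Nefh and Tubb3, had 0 counts in those 4 libraries. Their place among the listed genes can thus rest on Ang(1-7) 2 and 3 alone, and the 18 of 18 is a description only. Their summed level was 257 and 221 CPM, against 140 to 152. In the other 4 libraries most of the nervous tissue sum was Mbp, with 3108 to 3435 counts there and 3139 and 3614 in Ang(1-7) 2 and 3. For 6 listed stellate cell and fibroblast markers the summed level was 23.6 and 16.6 CPM, against 5.98 to 9.22. For 7 cholangiocyte markers other than Krt7 and Krt19 it was 2054 and 1941 CPM, against 1541 to 1795, and for 7 hepatocyte markers 1070 and 905 CPM, against 804 to 900. Macrophage (4 listed), blood (3) and endothelial (2) markers came to at most 14.9, 18.6 and 1.81 CPM in any library.

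Vim and Krt19 were set beside these markers in the Ang(1-7) libraries. Ang(1-7) 1, 2 and 3 had 6273, 10121 and 6360 CPM of Vim, beside 0, 923 and 477 counts of Nefl. Krt19 was at 602 CPM in Ang(1-7) 3, 668 in Ang(1-7) 1 and 365 in Ang(1-7) 2. The part of the other cell markers in the values of Ang(1-7) 2 was not tested.

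Genes that anchor or modify keratin filaments were read from further lists. In PA-OA against control, 1 of 12 tested genes for plakins, desmosomes and filament linkers was called (median 0.19, against 0.01 over all genes). Of all genes tested, 5.05% were called. Perp, a membrane protein needed for desmosomes, had 691, 686 and 642 CPM in controls and 549, 524 and 546 in PA-OA, with no overlap. It fell by 0.32 ± 0.06 on the log2 scale (edgeR adjusted p = 0.00473) and stayed called when any 1 library was left out (largest adjusted p 0.0442), but not with the spread estimated over all 9 libraries (0.539). Dsp, the desmoplakin that ties keratins to desmosomes, was at -0.03 ± 0.09 (edgeR adjusted p = 0.914), and Plec, which links filaments to hemidesmosomes, at 0.19 ± 0.19 (0.648).

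Partners of keratins in stress and aggregation were read in PA-OA against control, where edgeR called 5.05% of all genes tested. None of 6 genes for 14-3-3 proteins, which bind phosphorylated Krt18, was called (median -0.08), and none of 11 genes for Mallory-Denk body components and chaperones (median -0.00). Sqstm1, which encodes p62, was at -0.00 ± 0.10 (edgeR adjusted p = 0.995) and the chaperone gene Hspa8 at -0.01 ± 0.05 (0.933). The actin and tubulin genes, the other filament systems, had 0 of 12 called (median 0.02), with Actb at 0.08 ± 0.04 (edgeR adjusted p = 0.351). Actg1 was at -0.01 ± 0.34 (edgeR adjusted p = 0.993). It had a mean of only 6.89 CPM in controls, against 17212 for Actb, so its value rests on far fewer reads. At a share of 5.05%, lists this short may hold no called gene, so these counts do not set them apart from all genes.

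Epithelial and mesenchymal genes were set beside the fall of both the biliary keratins and Vim. Of 28 epithelial genes in the list only 4 were tested, and 1 was called (median 0.21, against 0.01 over all genes), where edgeR called 5.05% of all genes. This was F11r, a tight junction protein, with 234, 245 and 229 CPM in controls and 265, 292 and 310 in PA-OA. It rose by 0.29 ± 0.08 on the log2 scale (edgeR adjusted p = 0.0384). Of 32 mesenchymal genes in the list 13 were tested, and 2 were called, both higher (median 0.17). Col6a1, a collagen VI chain, had 55.7, 59.2 and 58.0 CPM in controls and 88.0, 86.4 and 85.2 in PA-OA and rose by 0.58 ± 0.11 (edgeR adjusted p = 0.00357).

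Mmp14, a membrane-bound matrix metalloproteinase, had 294, 324 and 326 CPM in controls and 417, 404 and 386 in PA-OA and rose by 0.35 ± 0.07 (edgeR adjusted p = 0.00631). Most of the other mesenchymal genes had positive fitted values, and none of them was called. Itgb1 (0.17, edgeR adjusted p = 0.0665), Tgfb1 (1.00, 0.0994) and Itgav (0.69, 0.106) were higher in every PA-OA library than in every control. Only S100a4 (-0.43, edgeR adjusted p = 0.298) and Twist2 (-0.46, 0.452) had negative values. Both were lower in every PA-OA library than in every control, as Vim was. Cdh1, which encodes E-cadherin, was at 0.13 (edgeR adjusted p = 0.307). The call of F11r was lost without control 1, 2 or 3 or PA-OA 2 or 3 (edgeR adjusted p from 0.0575 to 0.174) and that of Mmp14 without control 1 (0.0637), whereas Col6a1 was called in all 6 fits. With the spread estimated over all 9 libraries none of these 3 genes was called (edgeR adjusted p = 0.0515 for Col6a1, 0.383 for Mmp14 and 0.479 for F11r).

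Of the same lists, no gene was called in Ang(1-7) against PA-OA or in Ang(1-7) against control with all libraries. Of all genes tested, edgeR called 0% and 0.245% in these comparisons, and 10.2% against control without Ang(1-7) 2. Without Ang(1-7) 2, the genes other than the 5 members that edgeR called against control included Perp (-0.32), F11r (0.33), Col6a1 (0.49), Itgb1 (0.16), Csnk1a1 (1.02), Tubb4a (1.08) and Gfap, which had 0 counts in all 3 controls and 12 and 378 in the 2 libraries left.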

How the data were processed

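RNA of 9 AML12 samples was sequenced, and the members and gene lists were chosen with earlier results of these data known. Nothing in the labels tells if replicates were cultured separately, so p-values reflect the spread among these samples, possibly a technical one. The authors deposited 3 tables, 1 per pair of groups, of whole-number counts per RefSeq transcript. Each deposited table also gives log2 fold changes and unadjusted p-values, whose test its headers do not name. The submitters' processing notes name bcl2fastq, HISAT2 (2.2.5), HTSeq (0.11.2) and the human build hg19, although the tables hold mouse transcripts. A sample had the same counts in every table that held it.

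Counts were summed per gene symbol and tested within each pair's table in R 4.3.3 by the quasi-likelihood test of edgeR 4.0.16, after TMM scaling and filterByExpr and with no replicate term. Genes tested numbered 6213, 9261 and 6134, and a Benjamini-Hochberg adjusted p under 0.05 over all of them counted as called. CPM levels use the 6674 transcripts listed in all 3 tables, after TMM scaling. Summed markers instead use the table of both fatty acid groups and its library totals, without TMM scaling. Ratios were tested by exact permutation of libraries. The fit was tested on simulated counts. Named were the members, every other listed intermediate filament gene, called genes of each list and the 3 genes of highest r per member. A few items picked in this way are not reported here. Examples that were not called were named after their values were seen. Alternatives were DESeq2 1.42.0, other scalings, no filter, curated transcripts, all 9 samples in 1 fit, a replicate block and leaving out each library.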

Additional observations from a re-analysis of the deposited data

How the results depend on the processing

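For PA-OA against control, 314 genes were called by edgeR, 537 by DESeq2 and 33 when the spread was estimated over all 9 samples. That last fit called 0 members, with Krt7 at -0.27, Krt19 at -0.56 and Vim at -0.22, and the cause was not tested. For Ang(1-7) against PA-OA, DESeq2 called 5 genes, and the fit of 3 groups without Ang(1-7) 2, chosen after the data were seen, called 1, with Krt19 at 0.023 and Vim at -0.085. For Ang(1-7) against control, edgeR called 15 genes, upper quartile scaling gave 23, curated transcripts 27, all 9 samples 100, DESeq2 233 (1 member, Krt19 at -0.79) and 3 groups without Ang(1-7) 2 571 (4 members: Krt8 -0.21, Krt7 -0.28, Krt19 -0.55 and Vim -0.32). Leaving out 1 library at a time gave 99 to 397, 0 to 18 and 4 to 624 genes and 1 to 4, 0 and 0 to 5 members in the 3 comparisons. In Ang(1-7) against control, the 624 came without Ang(1-7) 2 and the 4 without any 1 of the controls.

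Over the same fits, PA-OA against control ranged from -0.11 to -0.03 for Krt8, -0.15 to -0.058 for Krt18, -0.34 to -0.23 for Krt7, -0.63 to -0.50 for Krt19 and -0.28 to -0.17 for Vim. Ang(1-7) against PA-OA ranged from -0.13 to 0.014 for Krt8, -0.071 to 0.030 for Krt18, -0.12 to 0.0013 for Krt7, -0.37 to 0.027 for Krt19 and -0.082 to 0.30 for Vim. Ang(1-7) against control ranged from -0.21 to -0.068 for Krt8, -0.17 to -0.10 for Krt18, -0.41 to -0.28 for Krt7, -0.96 to -0.55 for Krt19 and -0.32 to 0.042 for Vim. Every member kept its sign against control in these fits, except Vim in Ang(1-7) against control, at 0.036 without Ang(1-7) 1 and at 0.042 without Ang(1-7) 3.

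Libraries with the same number did not deviate together (correlations of -0.04 to 0.03 over the 3 comparisons), so the numbers were not taken as pairs. A replicate block gave 303, 0 and 10 genes and 3, 0 and 0 members and changed no member's call. Counting depth did not limit the 5 members, whereas genes of few counts such as Ina or Krt6a cannot be read below the 3 counts that a count of 0 allows.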
